A study of Mus musculus with 7 samples.

Results

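This report describes 39 genes whose nascent transcripts reached a count threshold in IAHC cells released from Notch inhibition and lay under it in cells kept inhibited. For 16 of them the inhibited cells gave at most 3 counts in all, and for many of the others the counts on both sides lay near the threshold. They were chosen by their counts: 10 or more in each of the 3 washout libraries, under 10 in both compE libraries, and 10 or more in at least 1 of the 2 Fc-JAG1 libraries. Of the 55487 genes in the raw count table, 39 met this rule, which is 39 of the 4193 genes at 10 or more counts in every washout library. The rule used all 7 libraries, so the difference between compE and washout that it selects on is described here and is not tested.

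The cells were GFI1+ IAHC, the cKIT-positive clusters of the embryonic aorta in which the first hematopoietic stem cells arise, sorted as CD31+cKIT+GFI1+ from the aorta-gonad-mesonephros (AGM) region of mouse embryos at E11.5. The embryos carried the Gfi1:tomato reporter (strain label CD1/Gf1+). The study describes cells purified from pools of embryos, whereas the sample titles read embryo 1, 2 and 3. All libraries, the washout ones included, came from cells held overnight in compE (compound E, a γ-secretase inhibitor). The cells were then washed, divided into sets of 300 to 400 and kept in methylcellulose for 4 h with 0.3 mM ethynyl uridine (EU), which marks newly made RNA for capture. During those 4 h the washout cells (biological samples 1, 2 and 3) received DMSO, the compE cells (samples 1 and 2) received compE again, and the Fc-JAG1 cells (samples 1 and 3) received the recombinant ligand Fc-JAG1. The labels give compE at 10 mM and Fc-JAG1 at 4 mg/ml, whereas the study's methods write them in μM and μg/ml. The labels also give 14 preamplification cycles, which differs from the number in the methods.

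Notch receptors are activated by ligands such as JAG1 and DLL4 on a neighbouring cell, after which γ-secretase cuts the receptor and frees its intracellular domain. That fragment enters the nucleus, joins the DNA-binding protein RBPJ and switches on target genes such as those of the Hes and Hey families. In the embryonic aorta Notch activity is needed for blood stem cells to emerge. Removing a γ-secretase inhibitor lets cleavage resume, and a gene that needs the Notch fragment can then be transcribed. The comparison of washout with compE was designed to find such genes, and the comparison of Fc-JAG1 with washout to find those that respond to added ligand.

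The libraries differed in how many genes they captured. Total counts ran from 21652927 to 33974693, and genes at 10 or more counts numbered 6265, 12351 and 7585 in washout 1, 2 and 3, 8096 and 12083 in the compE libraries of samples 1 and 2, and 11600 and 8006 in Fc-JAG1 1 and 3. The hematopoietic marker list (8 genes, among them Ptprc, Runx1, Kit and Gfi1) summed to between 2397 and 3664 CPM (counts scaled to a common library total) in every library, with 6 to 8 of its genes at 10 or more counts. Neural, mesenchymal and epithelial marker lists summed to at most 12.8 CPM in any library. The erythroid list was at 14.4, 147 and 316 CPM in the washout, 46.5 and 237 CPM with compE, and 207 and 81.5 CPM with Fc-JAG1. The endothelial list was at 1.29 CPM in Fc-JAG1 3 and at 68.8 to 360 CPM elsewhere, and the macrophage list was at 91.8 CPM in compE 1 and 135 CPM in Fc-JAG1 3 against 373 to 565 CPM in the other 5 libraries. In bulk libraries, fewer cells of a type and less RNA per cell cannot be told apart. The part of these differences in the counts below was not tested.

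RBPJ motifs were in 2 of the promoter windows searched, too few to tell their frequency from that at promoters in general. RefSeq promoter windows (GRCm38.p6, 250 bases before to 50 after each annotated start) were found for 24 of the 39 genes, 37 windows in all. The RBPJ letters GTGGGAA, searched on both strands, were in 2 of these windows, those of Tspan12 and Slc4a10, or 5.41%, against 6.38% of all 32851 windows. Counted by gene, this was 2 of the 24 (8.33%), against 7.25% of all genes with a window. Tspan12 encodes a tetraspanin that assists norrin signalling through the receptor Frizzled-4, and Slc4a10 a sodium-bicarbonate transporter. The 250 bases before the start are shown for both, since RBPJ is the DNA-binding partner of Notch, with the motif in capitals. Tspan12 is at chr6:21852534-21852783 on the minus strand, and Slc4a10 at chr2:62147628-62147877 on the plus strand, at an alternative start inside the annotated gene.
Tspan12: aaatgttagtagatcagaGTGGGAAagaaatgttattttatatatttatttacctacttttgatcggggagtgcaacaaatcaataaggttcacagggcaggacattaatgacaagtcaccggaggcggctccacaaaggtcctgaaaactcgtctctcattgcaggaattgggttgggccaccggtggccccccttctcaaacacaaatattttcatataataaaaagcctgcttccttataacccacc
Slc4a10: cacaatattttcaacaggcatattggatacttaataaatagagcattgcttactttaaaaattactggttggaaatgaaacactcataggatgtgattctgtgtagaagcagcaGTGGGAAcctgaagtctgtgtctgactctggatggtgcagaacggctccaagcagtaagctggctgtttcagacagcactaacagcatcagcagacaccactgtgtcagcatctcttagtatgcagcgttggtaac
The first motif base lies 232 bases before the start in Tspan12 and 136 bases before it in Slc4a10. A match is a description of these letters and not of a bound site.

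For comparison, the same stretch is shown for Camkk1 and Ier3, whose counts separated washout from compE with 0 compE reads and whose windows held no RBPJ motif. Here the capitals mark the SP/KLF letters GGGCGG, on either strand. Camkk1 is at chr11:73018738-73018987 and Ier3 at chr17:35821463-35821712, both on the plus strand.
Camkk1: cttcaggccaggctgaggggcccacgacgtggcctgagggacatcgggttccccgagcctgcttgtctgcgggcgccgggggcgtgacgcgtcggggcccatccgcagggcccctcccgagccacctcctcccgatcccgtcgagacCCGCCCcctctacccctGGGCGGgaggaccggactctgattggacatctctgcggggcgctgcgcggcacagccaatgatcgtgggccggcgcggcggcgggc
Ier3: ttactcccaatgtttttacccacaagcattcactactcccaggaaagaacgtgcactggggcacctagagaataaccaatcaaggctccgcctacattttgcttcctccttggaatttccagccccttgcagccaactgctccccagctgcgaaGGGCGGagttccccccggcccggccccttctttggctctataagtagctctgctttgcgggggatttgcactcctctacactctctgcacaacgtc
The SP/KLF letters were in 12 of the 37 windows (32.4%) against 35.7% of all windows, and the NFY letters CCAAT in 18 (48.6%) against 37.4%. The ETS letters CCGGAAG were in 3 windows (Ano10, Extl2 and Zfp945), the RUNX letters TGTGGTT in 1 (Abca17), the E-box CACGTG in 1 (Extl2) and the TATA letters TATAAA in 4, against 8.86%, 5.27%, 7.15% and 13.6% of all windows. The GATA letters AGATAA were in none of the 37 windows and in 11.2% of all windows. Counted by gene, the SP/KLF letters were in 11 of the 24 (45.8%) against 38.2% of all genes with a window. The NFY letters were in 54.2% against 41.1%, ETS in 12.5% against 9.93% and TATA in 16.7% against 15.7%. RUNX was in 4.17% against 6.09%, the E-box in 4.17% against 8.09% and GATA in none against 12.7%. For SP/KLF, ETS and TATA, and for RBPJ above, the direction thus differed between windows and genes. The E-box reads the same on both strands, and matches of different motifs may overlap.

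**Figure D1:**
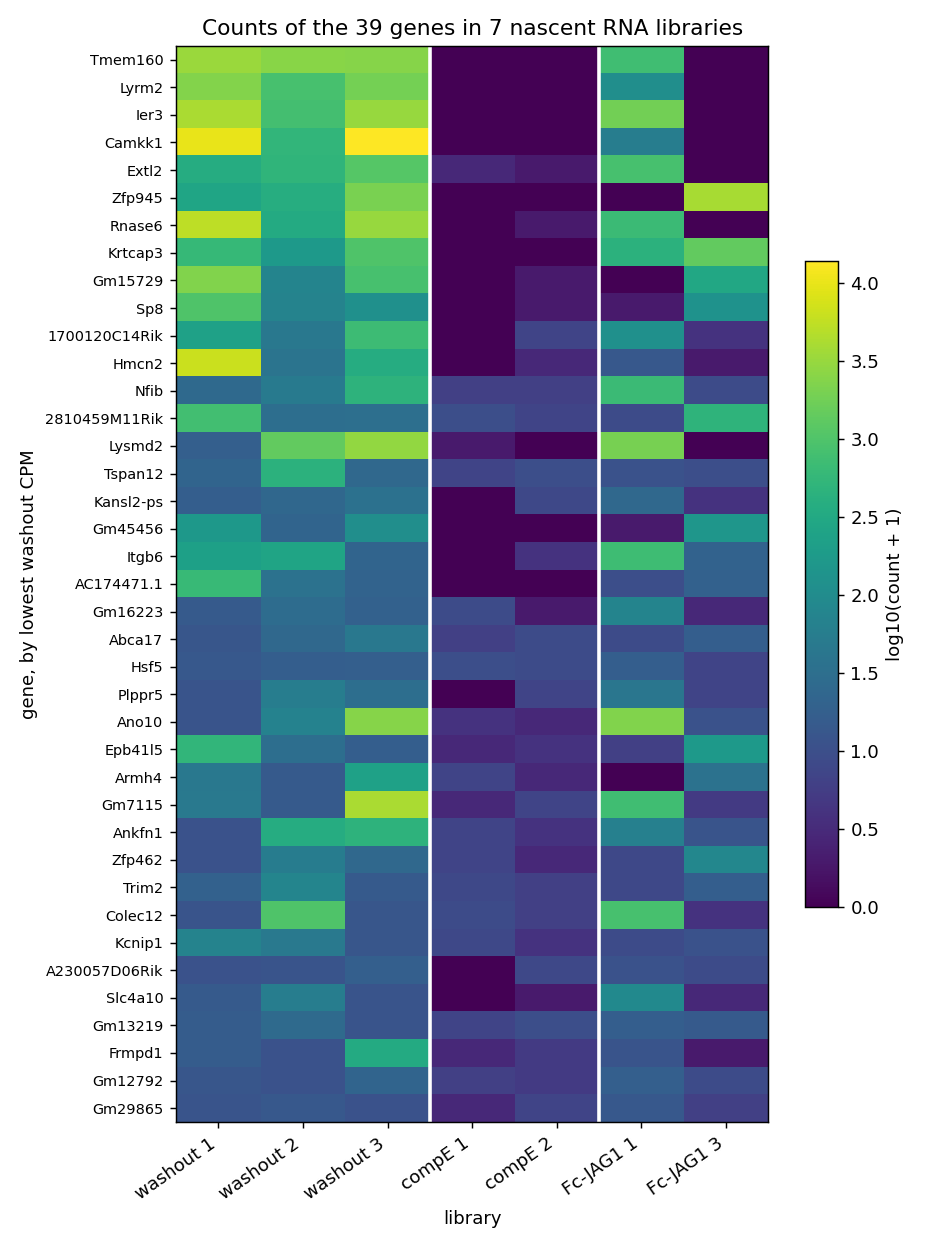
Colour shows log10(count + 1) of the 39 genes (rows, ordered by their lowest washout CPM) in the 7 libraries (columns). The compE columns are dark by selection, at 0 to 9 counts, and most genes reach 10 counts in 1 of the 2 Fc-JAG1 columns, 22 in Fc-JAG1 1 only, 12 in Fc-JAG1 3 only and 5 in both.

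The 8 genes with 0 counts in both compE libraries were Tmem160, Lyrm2, Ier3, Camkk1, Zfp945, Krtcap3, Gm45456 and AC174471.1. The first 6 of these had at least 164 counts in every washout library.

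Tmem160, which encodes a small transmembrane protein, had 3362, 2580 and 2481 counts in washout 1, 2 and 3. It had 0 counts in both compE libraries, and in the ligand libraries Fc-JAG1 1 and 3 it had 746 and 0. The washout libraries were close to one another, at 106 ± 42.4 CPM (SD, n = 3), and Fc-JAG1 1 was below all of them. With compE set at a floor of 3 counts per library, the washout mean was 1098-fold higher. The rule selected on both groups, so this ratio and those below are descriptions, not bounds. Lyrm2, which encodes a mitochondrial LYR-motif protein, had 2334, 852 and 1878 counts in the washout, 0 and 0 with compE, and 112 and 0 with Fc-JAG1. Both Fc-JAG1 libraries were thus below every washout library.

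Ier3, an immediate early gene of the stress response, had 4103, 808 and 3194 counts in the washout, 0 and 0 with compE, and 1836 and 0 with Fc-JAG1. In CPM, Fc-JAG1 1 (56.2) fell among the washout libraries (26.9 to 189) while Fc-JAG1 3 was at 0. Ier3 was the only one of the 4 immediate early genes at 10 or more counts in every washout library that was under 10 in both compE libraries. Camkk1, whose kinase activates the calmodulin-dependent kinases CaMKI and CaMKIV, had 10140, 540 and 13862 counts in the washout and 57 and 0 with Fc-JAG1. Its washout libraries spread 26.1-fold in CPM, and both Fc-JAG1 libraries lay below the lowest of them. It was the only one of 9 calmodulin pathway genes counted in every washout library to be under 10 in both compE libraries.

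Krtcap3, which encodes a keratinocyte-associated membrane protein, was the one gene of the 8 with counts over 10 in both Fc-JAG1 libraries. It had 585, 164 and 993 counts in the washout, 0 and 0 with compE, and 450 and 1379 with Fc-JAG1. In CPM, Fc-JAG1 1 (13.8) lay within the washout range of 5.46 to 31.3 and Fc-JAG1 3 (52.3) above it. Zfp945, a zinc finger gene, had 276, 383 and 2066 counts in the washout, 0 and 0 with compE, and 0 and 3935 with Fc-JAG1. It was thus at 0 in 3 libraries, 1 of them treated with ligand, and highest in the other library treated with ligand.

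The remaining pair of genes at 0 were a processed pseudogene and a noncoding transcript. Gm45456, a pseudogene of 0.243 kb, had 161, 21 and 109 counts in the washout and 1 and 148 with Fc-JAG1. Reads of a pseudogene can be shared with its parent gene, so its counts are uncertain even though uniquely mapped reads were used. AC174471.1 spans 464 kb on chromosome 17, shares exon sequence with Btbd9 on the same strand, and had 607, 35 and 20 counts in the washout and 9 and 18 with Fc-JAG1. At the floor of 3 counts, its ratio of washout to compE fell from 103-fold to 9.26-fold without washout 1, so that library carried most of it. For Zfp945 the ratio was 312-fold, and 131-fold without washout 3. Without washout 1 the ratio for Ier3 went from 1091-fold to 659-fold and that for Gm45456 from 39.8-fold to 21.4-fold.

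A further 8 genes had 1 to 3 counts over both compE libraries. Extl2, a glycosyltransferase of the exostosin family that acts in heparan sulfate synthesis, had 370, 516 and 1112 counts in the washout, 2 and 1 with compE, and 858 and 0 with Fc-JAG1. Its washout libraries agreed within 2.05-fold in CPM. Rnase6, a secreted ribonuclease of myeloid cells, had 5354, 336 and 3197 counts in the washout, 0 and 1 with compE, and 671 and 0 with Fc-JAG1. The macrophage marker list summed to 373 to 518 CPM in the washout, 91.8 and 406 CPM with compE, and 565 and 135 CPM with Fc-JAG1, and its part in the Rnase6 counts was not tested.

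Gm15729, a long intergenic noncoding RNA, had 2238, 74 and 865 counts in the washout, 0 and 1 with compE, and 0 and 301 with Fc-JAG1. Sp8, an SP-family transcription factor of limb and brain development, had 997, 70 and 121 counts in the washout, 0 and 1 with compE, and 1 and 126 with Fc-JAG1. In both genes washout 1 was highest and only Fc-JAG1 3 of the ligand libraries held reads above the threshold. Hmcn2, a hemicentin of the extracellular matrix, had 6427, 38 and 362 counts in the washout, 0 and 2 with compE, and 13 and 1 with Fc-JAG1, so that a single washout library held nearly all its reads.

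The other members with 1 to 3 compE counts were Lysmd2, Itgb6 and Slc4a10. Lysmd2, which encodes a protein with a LysM domain, had 17, 1395 and 2901 counts in the washout, 1 and 0 with compE, and 1992 and 0 with Fc-JAG1. Itgb6, the β6 integrin chain known from epithelia where it activates TGF-β, had 225, 260 and 21 counts in the washout, 0 and 3 with compE, and 722 and 19 with Fc-JAG1. The epithelial marker list (Epcam, Cdh1, Krt8 and Krt18) summed to 0.0631 to 8.38 CPM in the washout, 0.352 and 0.412 CPM with compE, and 12.8 and 0.493 CPM with Fc-JAG1 1 and 3. Slc4a10 had 14, 56 and 11 counts in the washout, 0 and 1 with compE, and 93 and 2 with Fc-JAG1.

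**Figure D2:**
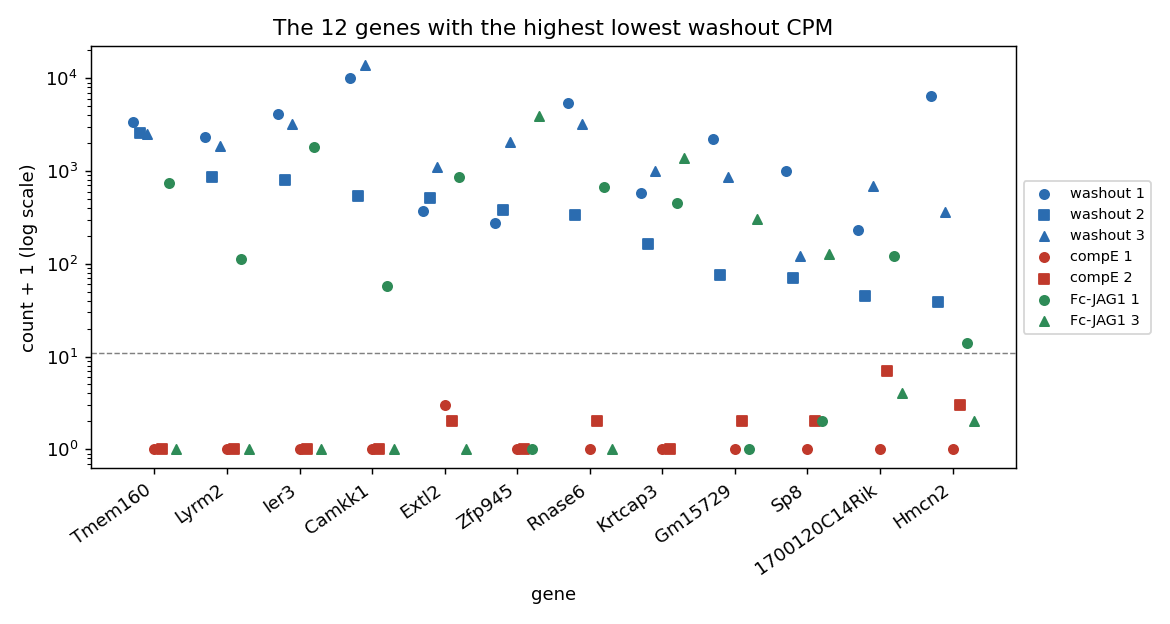
Counts plus 1 on a log axis for the 12 genes with the highest lowest washout CPM, 1 point per library (blue, washout; red, compE; green, Fc-JAG1; marker shape, biological sample; dashed line, the threshold of 10 counts). The washout points span 38 to 13862 counts, the compE points 0 to 6, and in 11 of the 12 genes 1 of the 2 green points lies at 0 to 3 counts.

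In the remaining 23 genes the compE libraries together held more than 3 counts, and the gap to the washout was small in many of them. Overall 20 of the 39 genes had a compE library at 5 to 9 counts, and 21 had a lowest washout count of 10 to 19. Hsf5, a heat shock factor gene, had 13, 16 and 17 counts in the washout, 9 and 8 with compE, and 16 and 6 with Fc-JAG1. Its 3 washout values were alike, and compE lay 4 counts or more below the lowest of them. Nfib, a nuclear factor I transcription factor, had 25, 48 and 483 counts in the washout, 5 and 5 with compE, and 677 and 8 with Fc-JAG1, so its larger values were in 1 washout and 1 Fc-JAG1 library.

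Large counts in single libraries recurred among these genes. Colec12, a scavenger receptor, had 11, 989 and 12 counts in the washout, 8 and 5 with compE, and 863 and 3 with Fc-JAG1. Ano10, of the anoctamin family of ion channels and lipid scramblases, had 11, 68 and 2479 counts in the washout, 3 and 2 with compE, and 2249 and 10 with Fc-JAG1. Tspan12 had 21, 456 and 24 counts in the washout, 6 and 9 with compE, and 10 and 9 with Fc-JAG1. In each of these 3 genes at least 1 washout library lay within 12 counts of a compE library.

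Epb41l5, a FERM-domain protein of epithelial cells, had 535, 30 and 16 counts in the washout, 2 and 3 with compE, and 5 and 166 with Fc-JAG1. Zfp462, a zinc finger gene, had 10, 54 and 24 counts in the washout, 6 and 2 with compE, and 7 and 81 with Fc-JAG1. Trim2, a ubiquitin ligase of neurons, had 18, 75 and 14 counts in the washout, 7 and 5 with compE, and 7 and 16 with Fc-JAG1. In these 3 genes the Fc-JAG1 library above the threshold was Fc-JAG1 3. Values of Ankfn1, Gm13219 and Gm29865 are given further on. The other 12 of the 23 were 1700120C14Rik, 2810459M11Rik, Kansl2-ps, Gm16223, Abca17, Plppr5, Gm7115, Armh4, Kcnip1, A230057D06Rik, Frmpd1 and Gm12792, with 10 to 4183 counts in the washout, 0 to 9 with compE and 0 to 744 with Fc-JAG1. The highest of these washout and Fc-JAG1 counts were both those of the pseudogene Gm7115, which had 46, 14 and 4183 counts in the washout, 2 and 6 with compE, and 744 and 4 with Fc-JAG1.

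**Figure D3:**
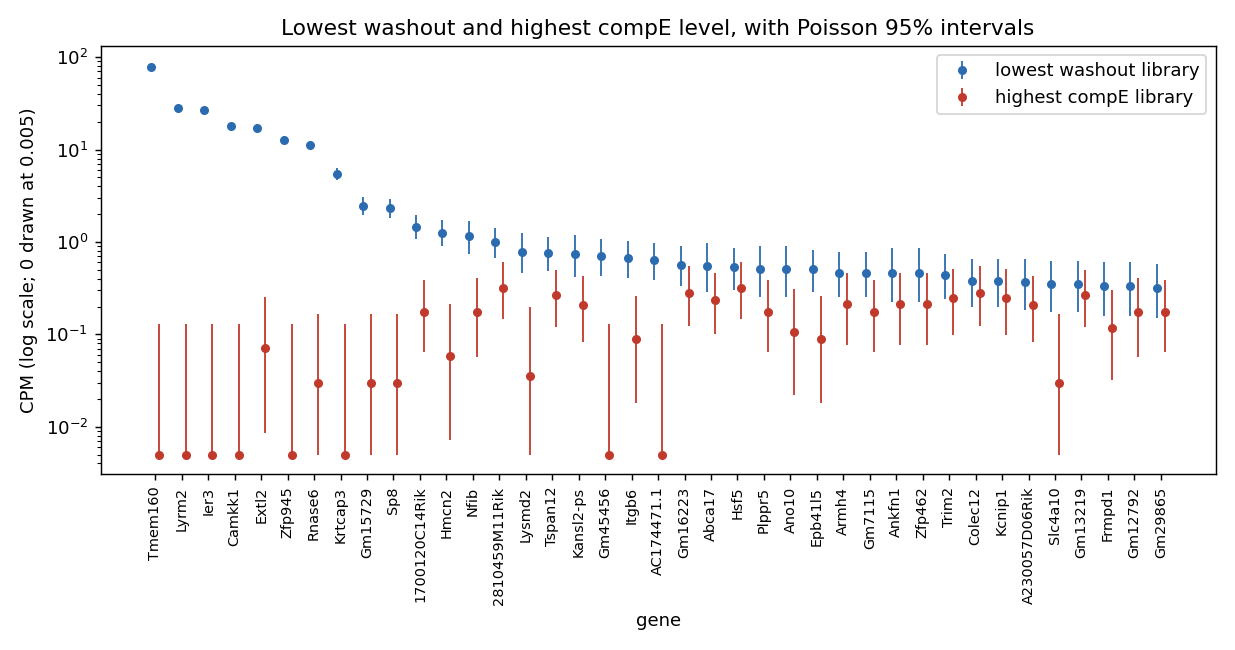
For each gene, the CPM of its lowest washout library (blue) and of its highest compE library (red) on a log axis, with exact Poisson 95% intervals as bars; 0 is drawn at 0.005 CPM. The bars separate for 20 genes, mostly on the left, and overlap for 19, mostly on the right.

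In many genes counting error alone covered the gap between the closest washout and compE libraries, though other washout libraries could be far higher. With exact Poisson 95% intervals, the lowest washout level and the highest compE level overlapped in 19 of the 39 genes and did not overlap in 20. The 20 included all 16 genes with at most 3 compE counts. These intervals cover counting error only, and without molecular identifiers many reads can come from few captured molecules. The rule selected on both levels and no such split was made for other genes, so the 20 are described and not tested. In CPM, 10 counts stood for 0.462 in washout 1, the smallest library, and for 0.294 in compE 2, the largest.

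Several members lay at the threshold. Of the 39, 6 had a lowest washout count of exactly 10, 4 had a highest compE count of 9, and 3 had a higher Fc-JAG1 count of 10. Gm29865, a noncoding RNA gene, was inside with 11, 13 and 10 counts in the washout and 2 and 6 with compE. Slc28a2, a nucleoside transporter, was outside with 9, 9 and 35 in the washout and 4 and 3 with compE. Prdm10, a PR-domain zinc finger gene, was outside with 10 counts in compE 2, although it had 203, 170 and 31 in the washout and 2409 and 685 with Fc-JAG1.

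The set depended on the threshold. At 5 counts the rule found 51 genes, 19 of them among the 39, at 20 counts it found 30 genes, 15 among the 39, and at 0.5 CPM in each library it found 37 genes, 23 among the 39. The genes found at all 4 thresholds numbered 12: Tmem160, Lyrm2, Ier3, Camkk1, Extl2, Zfp945, Rnase6, Krtcap3, Gm15729, Sp8, Gm45456 and Itgb6. The set also depended on single libraries, with 616 genes found when compE 2 was left out, 77 without compE 1, 142 without washout 1, 53 without washout 2 and 113 without washout 3, each including the 39. With Fc-JAG1 3 as the only ligand library 17 were found, and with Fc-JAG1 1 as the only one 27.

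Most of the 39 genes reached 10 counts in 1 Fc-JAG1 library and not in the other. Of the 39, 5 were at 10 or more counts in both, which were Krtcap3, Itgb6, Ano10, Ankfn1 and Gm13219, whereas 81.8% of the 4193 genes counted in every washout library were. The 22 of the 39 in Fc-JAG1 1 only stood beside 644 of the 4193, and the 12 in Fc-JAG1 3 only beside 58. For the 39, 10 or more counts in at least 1 Fc-JAG1 library and under 10 in both compE libraries were required. The 4193 did not have to meet either condition and were not matched to the 39 in count level. These shares are thus a description of the chosen genes, and nothing is read from their difference. Ankfn1 had 10, 360 and 481 counts in the washout, 6 and 3 with compE, and 62 and 11 with Fc-JAG1. Gm13219, a noncoding RNA gene, had 15, 26 and 11 counts in the washout, 6 and 9 with compE, and 16 and 14 with Fc-JAG1. Of the genes found at other thresholds, 17 of 51 were on in both at 5 counts, 10 of 30 at 20 counts and 10 of 37 at 0.5 CPM. The higher of the Fc-JAG1 levels exceeded every washout library in CPM in 7 genes and lay below every washout library in 8. In 10 genes the other Fc-JAG1 library was at 0.

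Within a biological sample, these genes were more often lower with Fc-JAG1 than in the washout. In sample 1, 28 of the 39 were lower, beside 3315 of the 10311 genes that passed the authors' filter. The median difference in log2(CPM + 1) was -0.34 over the 39 and 1.23 over the 10311. In sample 3, 27 of the 39 and 4885 of the 10311 were lower, with medians of -0.54 and 0.0. The rule required counts in every washout library of the 39, whereas the authors' filter did not require this of the 10311. The sets are thus unmatched, and these values are a description of the chosen genes.

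The fits across all genes gave no call by the main test. In edgeR's quasi-likelihood test with Benjamini-Hochberg adjustment, none of the 39 genes was called at an adjusted p of 0.05 between compE and washout, beside a background of 0 percent of the 9632 genes eligible for a call, with 10 of the 39 and 273 of all 10311 genes at an unadjusted p under 0.05. The test called none between Fc-JAG1 and washout either, beside 0 percent of 9569, with 1 of the 39 (Camkk1) and 526 of all genes at an unadjusted p under 0.05. By the authors' own choice of test, the DESeq2 Wald test, with terms for biological sample and condition, 20 of the 39 were called lower with compE, where 3.92 percent of the eligible genes were called lower. The rule used this contrast, and nothing is read from that count, which was 4 without compE 1 and 15 to 27 without any other library, where DESeq2 called 0.862 to 13.9 percent of eligible genes lower across the 7 fits. DESeq2 called 5 of the 39 lower with Fc-JAG1 than in the washout (Lyrm2, Camkk1, Gm15729, Hmcn2 and Armh4) and 0 higher, where it called 5.11 percent of 9569 genes lower and 16.9 percent higher. Without 1 library at a time it called 7 to 12 of the 39 lower and 0 or 1 higher, where it called 3.75 to 15.5 percent of eligible genes lower and 7.48 to 22.6 percent higher. The most calls came without washout 3 or Fc-JAG1 3.

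The fitted fold changes had wide errors, and edgeR's common dispersion, its measure of the spread between libraries beyond counting error, was 2.42. For Camkk1 between Fc-JAG1 and washout, edgeR gave a log2 fold change of -9.40 (SE 3.01, adjusted p = 0.83) and DESeq2 -10.56 (SE 3.67, adjusted p = 0.0246). For Krtcap3 between Fc-JAG1 and washout they gave -0.33 (SE 2.52) and -0.64 (SE 1.99), neither called. The median fitted log2 fold change of the 39 genes between Fc-JAG1 and washout was -1.35 by edgeR, and 0.44 over all genes in the fit. The rule asked for counts in every washout library but not in both Fc-JAG1 libraries. That favours a median below 0 for the 39, and nothing is read from its sign.

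The Notch lists held too few genes counted in every washout library to set a count of 0 apart from the background, since 1.19% of all such genes were under 10 in both compE libraries. Of 56 Notch pathway components, 16 were at 10 or more counts in every washout library, and none of these was under 10 in both compE libraries. Of 20 genes on the list of Notch targets used here, 4 were counted in every washout library (Hes6, Gata2, Myc and Cdkn1a). None of these was under 10 in both compE libraries. Hes6 had 6216, 3533 and 2072 counts in the washout and 5352 and 1488 with compE. Gata2 had 6718, 7062 and 33387 in the washout, 0 in compE 1 and 9725 in compE 2. Myc had 19111, 27439 and 47501 in the washout and 7671 and 35489 with compE. Cdkn1a had 4018, 4397 and 11390 in the washout and 1803 and 6135 with compE. Hes1 had 0, 748 and 1 counts in the washout, 0 and 977 with compE, and 1867 and 0 with Fc-JAG1, so it lacked the washout counts that the rule asks for. None of the members was on the lists of blood emergence factors (19 counted in every washout library), cell cycle genes (22 of G1/S and 25 of G2/M) or chromatin remodeling genes (30).

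By name, the 39 genes were scattered over families, and they made up 0.93% of the 4193 genes counted in every washout library. The zinc finger genes Zfp945 and Zfp462 were 2 of 58 zinc finger genes counted in every washout library, Slc4a10 was 1 of 55 solute carriers, Trim2 1 of 98 ubiquitin enzymes, Camkk1 1 of 75 protein kinases, and Itgb6 1 of 14 integrin, collagen and laminin genes. Another 11 were predicted genes or transcripts named for a clone, of 217 such genes counted in every washout library. No ribosomal protein gene was among the 39, of 70 cytosolic and 26 mitochondrial ones counted in every washout library.

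The 39 genes held fewer protein-coding genes than the rest and were long. Protein-coding genes made up 29 of them (74.4%), against 94.4% of annotated genes counted in every washout library. There were 4 long intergenic noncoding RNAs, 3 processed pseudogenes, 2 processed transcripts and 1 unprocessed pseudogene. The annotated span had a median of 86.8 kb, against 34.4 kb for genes counted in every washout library and 29.7 kb for genes passing the authors' filter. The exonic length was not longer, at a median of 4.16 kb against 5.18 kb in the former.

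Span differed within the set. The 8 genes at 0 in both compE libraries had a median span of 2.11 kb, and the other 31 a median of 104 kb. The 13 genes whose washout counts were all under 100 had a median span of 139 kb, and the 26 with a washout count of 100 or more a median of 21.2 kb. The longest genes beside AC174471.1 were Nfib (416 kb), Ankfn1 (387 kb) and Kcnip1 (364 kb), a modulator of potassium channels. In all, 14 of the 39 overlapped another annotated gene, and 4 shared exonic sequence with one (1700120C14Rik with Mcrs1, Tspan12 with Gm30270, AC174471.1 with Btbd9, and A230057D06Rik with microRNA genes). The strand setting of the counting is not given in the sources used here. Reads of the pairs on opposite strands (with Mcrs1 and Gm30270) thus may be mixed, and on the same strand shared exons cannot be told apart. Gm30270 and the microRNA genes that share exons were at 0 counts in every library. Btbd9 had 13, 2454 and 2232 counts in the washout and 5628 and 9443 with compE. Mcrs1 had 0, 1363 and 0 in the washout and 281 and 941 with compE.

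**Figure D4:**
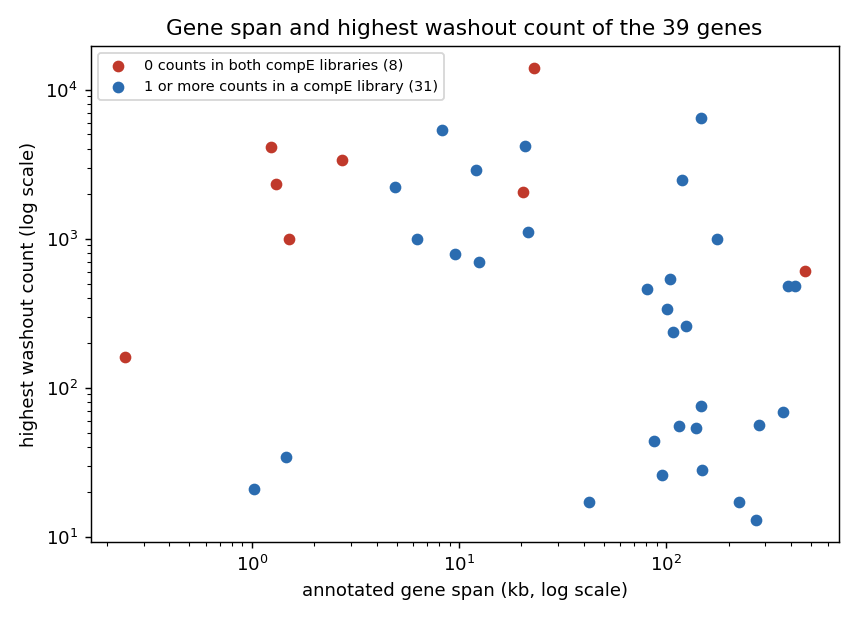
Annotated gene span in kb against the highest washout count, both on log axes, 1 point per gene (red, the 8 genes at 0 in both compE libraries; blue, the other 31). Of the red genes 7 span at most 23.1 kb, and the genes under 100 counts lie mostly above 40 kb.

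The genes were spread over 15 chromosomes, with 5 each on chromosomes 3 and 4. The closest pair, Gm7115 and Trim2 on chromosome 3, lay 328 kb apart. Camkk1 is at 73019008 to 73042073 on chromosome 11, Ier3 at 35821684 to 35822923 on chromosome 17, Tmem160 at 16452779 to 16455494 on chromosome 7, and Lyrm2 at 32800253 to 32801559 on chromosome 4 (GRCm38).

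The washout libraries disagreed more for these genes than for others. The highest washout CPM was a median of 10.6 times the lowest over the 39 genes, from 1.13 times in Hsf5 to 283 times in Gm7115, against a median of 4.65 times over the 4193 genes counted in every washout library. The lowest value was in washout 2 for 18 of the 39 (46.2%), against 26.2% of the 4193, although washout 2 was the washout library with the most genes captured. The 4193 were not matched to the 39 in count level, and the part of counting error in these ratios was not tested.

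Genes on in the washout and off with compE were a small share of the whole. Of the 4193 genes, 3502 (83.5%) were at 10 or more in both compE libraries, 599 in compE 2 only and 42 in compE 1 only. The genes under 10 in both numbered 50 (1.19%), the 39 and 11 that were also under 10 in both Fc-JAG1 libraries. In total 60 (1.43%) were under 10 in both Fc-JAG1 libraries, whatever their compE counts, and these include the same 11. By contrast 247 (5.89%) were under 10 in compE 1 and Fc-JAG1 3, which are libraries of different treatments that both captured few genes.

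The number of genes found varied with which libraries filled the places of the rule. Keeping 3 libraries on, 2 off and 2 optional, the other 209 placements of the 7 libraries found between 9 and 1242 genes, with a median of 48, where the labelled one found 39. With both compE libraries in the off places, the counts ran from 23 to 51. With washout 1 and washout 3 off they ran from 549 to 1242, with washout 1 and compE 1 off from 411 to 1118, and with compE 1 and Fc-JAG1 3 off from 223 to 745. With the Fc-JAG1 pair off they ran from 29 to 72, and with washout 2 and compE 2 off from 12 to 18. The pairs that found the most genes were those of libraries that captured few genes.

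**Figure D5:**
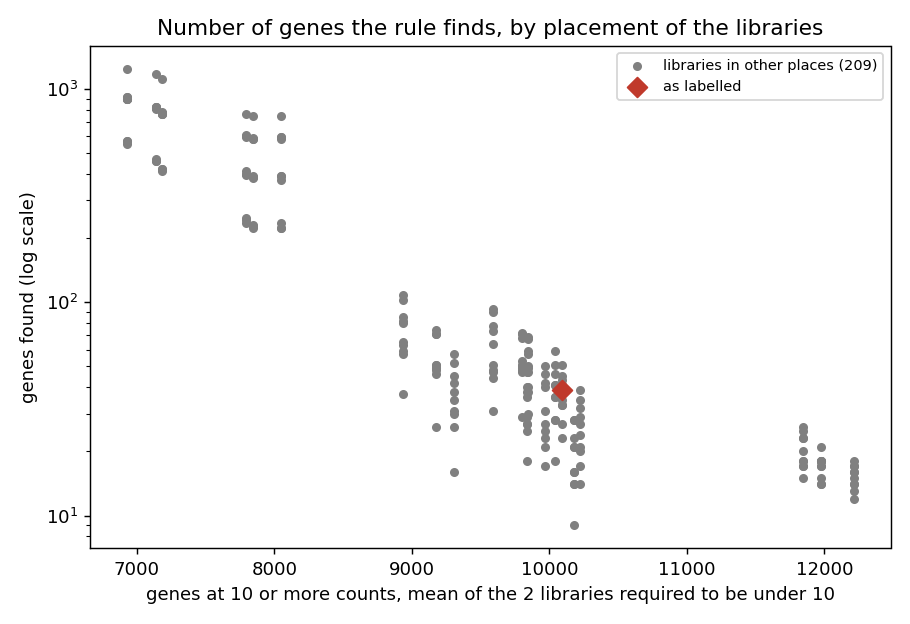
Each point is 1 placement of the 7 libraries in the rule: the mean number of genes at 10 or more counts in the 2 libraries required to be off (horizontal) against the number of genes found (vertical, log axis). The labelled placement (red diamond, 39 genes) lies among the grey points at the same horizontal position, which range from 23 to 51, and counts of 223 or more occur only at the left.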

How the data were processed

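Nascent RNA was measured in 7 libraries. Per the methods, the authors trimmed reads with cutadapt 4.2, aligned them to GRCm38 (Ensembl annotation) with STAR 2.7.8, and counted the reads that mapped to 1 place per gene with featureCounts (Subread 2.0.1). The deposited counts are raw. The authors' filtered counts hold the 10311 genes with 10 or more counts in 2 replicates of a condition, and the deposited log2 values are their DESeq2 1.38.3 variance-stabilized values, which were not used for any test. Fc-JAG1 2, left out by the authors, was not used here. CPM were computed from the raw counts.

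The fits used edgeR 4.0.16 (quasi-likelihood, TMM, terms for biological sample and condition) and, as an alternative, DESeq2 1.42.0, in R 4.3.3, on all filtered genes and all 7 libraries, with Benjamini-Hochberg adjustment over all of them. As in the study, a call also needed 10 or more counts in 2 replicates of either condition compared. Standard errors for edgeR were taken from the fold change and its F statistic. Labels that share a number were treated as 1 biological sample, as the study does. For 5 such pairs of libraries, the correlation of their departures from the condition means ran from -0.0804 to 0.0871. P-values measure the spread between these libraries.

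The members and gene lists were chosen with earlier results of these data known. Named were the 12 members with the highest lowest washout CPM, members on in both Fc-JAG1 libraries, on a list or in a named class, at the threshold, or with a printed promoter. Others (among them Lysmd2, Nfib, Colec12, Epb41l5, Armh4, Hes1 and the overlapping genes) were named after their values were seen. Symbols, spans and overlaps came from GENCODE M21.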

Additional observations from a re-analysis of the deposited data

How the results depend on the processing

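The number of genes found was within 1.5 times of 39 at thresholds of 5 counts, 20 counts and 0.5 CPM and without the Fc-JAG1 condition (50 genes). Leaving out each library moved it between 17 and 616, the highest without compE 2 and the lowest without Fc-JAG1 1. Without washout 1 it found 142, without washout 3 it found 113 and without compE 1 it found 77. Other placements of the libraries found 9 to 1242, and asking for Poisson intervals that do not overlap, an alternative chosen after seeing the data, left 20. The 5 genes on in both Fc-JAG1 libraries became 17 at 5 counts, 10 at 20 counts and 10 at 0.5 CPM, and 11 to 375 when a washout or compE library was left out (375 without compE 2). Leaving out an Fc-JAG1 library gives no such count.

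EdgeR called 0 genes in each of the 3 comparisons under DESeq2 size factors, with all genes of 1 or more counts, and without each library. With no replicate block it called 1 gene between Fc-JAG1 and washout, which is not among the 39, and 0 in the others. The DESeq2 Wald test called 962 genes between compE and washout, 2108 between Fc-JAG1 and washout and 1175 between Fc-JAG1 and compE, and 325, 388 and 190 with no replicate block. Of the 39 genes it called 20 between compE and washout, beside 962 of 9632 eligible genes. Between Fc-JAG1 and washout it called 5, beside 2108 of 9569. With no replicate block these were 19, beside 325 of 9632, and 2, beside 388 of 9569. The rule used all 7 libraries, so nothing is read from any count of the 39 called. Shares of all genes for the fits without a library are given above. Across fits without each library, the number called of the 39 between compE and washout was 0 by edgeR and 4 to 27 by DESeq2 (4 without compE 1, 15 without compE 2, Fc-JAG1 1 or washout 1, 24 without washout 2, 26 without Fc-JAG1 3 and 27 without washout 3), and between Fc-JAG1 and washout 0 by edgeR and 7 to 13 by DESeq2. The DESeq2 fits without a library were added after seeing the data. The median log2 fold change of the 39 between Fc-JAG1 and washout stayed below 0 in every fit run, at -2.24 by DESeq2, -1.02 by edgeR and -1.51 by DESeq2 with no replicate block, and, without each library, -1.65 to -1.37 by edgeR and -2.28 to -1.63 by DESeq2. The rule favours a median below 0 here, since it asked for counts in every washout library but not in both Fc-JAG1 libraries. Size factors in place of TMM moved the median of all genes between Fc-JAG1 and washout from 0.44 to 0.07. They moved that of the 39 from -1.35 to -1.66. The causes were not tested. A gene at 0 counts in a library can still have been transcribed, and the floor of 3 counts is a convention.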
